A study of Mus musculus with 9 samples.

Results

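The collagen genes are described here across brown adipose tissue (BAT) and cultured brown adipocytes of the mouse with and without loss of Setdb1, whose product, a histone H3 methyltransferase, deposits the silencing mark on lysine 9. They were chosen by symbol, Col followed by a number, the letter a and a number. Of 29386 genes in the 4 deposited tables, 44 matched, and the 42 with at least 10 counts in at least 1 of the 9 libraries are reported; 36 of the 42 were listed in all 4 tables. The genes outside the minimum were Col6a4, with at most 7 counts in a library, and Col9a1, with at most 2. Just inside it were Col25a1, with at most 10, and Col22a1, with at most 11. RNA was enriched for polyadenylated transcripts and sequenced in 3 separate experiments. In the first, 2 Setdb1 AKO libraries came from BAT of mice with both Setdb1 alleles floxed (Setdb1 fl/fl) and the Adipoq-Cre transgene, which is expressed in adipocytes, and 2 control libraries came from Setdb1 fl/fl mice without Cre. In the second, primary brown adipocytes with floxed Setdb1 and the tamoxifen-activated recombinase Cre-ERT2 at Rosa26 gave 1 library after 1 μM 4-hydroxytamoxifen (4-OHT) and 1 after the ethanol vehicle (ETOH). In the third, primary brown adipocytes gave 2 libraries after siRNA against Setdb1 (siSetdb1) and 1 after the control siRNA (siNC). The titles siSetdb1_1 and siSetdb1_2 do not say whether these are repeats of 1 siRNA or different siRNAs. They are treated here as replicates. The sources used here do not give the age or sex of the mice, nor say whether animals were pooled. The titles of all 4 BAT libraries share the prefix TN_CE, which the labels do not explain.

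Collagens are secreted or membrane-bound proteins built from chains that wind into a triple helix, after hydroxylation of their prolines and lysines in the endoplasmic reticulum. Fibrillar chains assemble into the tensile fibrils of connective tissue, type IV chains into the sheet of the basement membrane that surrounds each adipocyte and capillary, and type VI chains into beaded microfibrils that are abundant in fat. Fibril-associated collagens (FACIT) sit on the surface of fibrils. By class the 42 members were 11 fibrillar, 8 fibril-associated, 6 basement membrane (type IV), 5 type VI and 4 transmembrane chains, 3 other network formers (types VIII and X), 2 multiplexins (types XV and XVIII), the anchoring fibril chain Col7a1, and the 2 chains Col26a1 and Col28a1 outside these classes.

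Total counts on genes ran between 15979479 and 16940622 in BAT, between 29911734 and 30176359 in the 4-OHT experiment and between 17593799 and 18468152 in the siRNA experiment. Setdb1 itself fell in Setdb1 AKO BAT, to 156 and 191 normalised counts against 455 and 473 in control BAT (log2 fold change -1.42, limma adjusted p = 0.0216). It had 620 counts in 4-OHT cells, against 1070.0 in ETOH cells. It had 371 and 399 normalised counts in siSetdb1 cells, against 784 in siNC cells (log2 fold change -1.02, limma adjusted p = 0.0526). All 7 adipocyte markers were detected in every library.

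The promoters of a few members are shown, chosen for their abundance or their fitted difference in BAT. Sequences are RefSeq windows on build GRCm38.p6, from 250 bases before to 50 after the transcription start, written 5′ to 3′ on the gene's strand. Capitals mark the TATA box, spelled TATAAA, the CAAT box, spelled CCAAT, and the GC box, spelled GGGCGG, each searched on both strands. Col4a1 and Col4a2, the most abundant collagen transcripts of BAT per kilobase, lie head to head with first bases 21 apart, so their windows overlap (chr8:11312777-11313076, minus strand, and chr8:11312555-11312854, plus strand). Col3a1 was next in abundance (chr1:45311288-45311587, plus strand). Col6a5 and Col6a6, the type VI chains with the largest fitted differences in BAT, are neighbours whose annotated spans lie 27918 bases apart on the same strand (chr9:105960594-105960893, minus strand, and chr9:105828036-105828335, minus strand).
Col4a1: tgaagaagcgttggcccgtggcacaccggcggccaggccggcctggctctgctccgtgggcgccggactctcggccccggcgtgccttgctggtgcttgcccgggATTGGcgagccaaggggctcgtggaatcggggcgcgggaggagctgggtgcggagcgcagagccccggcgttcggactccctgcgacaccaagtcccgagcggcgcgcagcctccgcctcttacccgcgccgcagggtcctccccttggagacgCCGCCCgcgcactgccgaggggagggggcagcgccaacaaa
Col4a2: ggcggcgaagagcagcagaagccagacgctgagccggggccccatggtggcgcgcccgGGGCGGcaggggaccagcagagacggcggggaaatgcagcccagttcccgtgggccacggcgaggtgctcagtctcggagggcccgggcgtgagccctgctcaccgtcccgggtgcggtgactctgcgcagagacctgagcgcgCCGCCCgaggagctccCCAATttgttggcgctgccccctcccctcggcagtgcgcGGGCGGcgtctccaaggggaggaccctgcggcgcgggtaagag
Col3a1: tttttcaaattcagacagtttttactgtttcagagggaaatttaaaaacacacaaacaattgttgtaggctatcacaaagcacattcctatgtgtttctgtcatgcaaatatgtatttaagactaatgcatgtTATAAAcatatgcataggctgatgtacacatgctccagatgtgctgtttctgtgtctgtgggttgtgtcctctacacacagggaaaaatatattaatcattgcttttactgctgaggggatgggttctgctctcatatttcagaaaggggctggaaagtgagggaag
Col6a5: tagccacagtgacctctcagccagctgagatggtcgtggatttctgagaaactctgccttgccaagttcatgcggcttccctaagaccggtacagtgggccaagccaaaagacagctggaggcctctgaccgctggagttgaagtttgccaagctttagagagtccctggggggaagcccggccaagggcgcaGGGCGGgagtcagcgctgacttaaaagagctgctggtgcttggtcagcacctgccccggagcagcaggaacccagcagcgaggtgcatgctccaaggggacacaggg
Col6a6: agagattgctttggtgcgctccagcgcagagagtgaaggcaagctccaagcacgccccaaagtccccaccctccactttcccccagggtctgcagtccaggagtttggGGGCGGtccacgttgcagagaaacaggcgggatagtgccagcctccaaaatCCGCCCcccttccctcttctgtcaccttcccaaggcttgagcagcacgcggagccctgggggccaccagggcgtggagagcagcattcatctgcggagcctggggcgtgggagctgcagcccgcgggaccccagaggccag
The shared Col4a1 and Col4a2 region is rich in CpG, with 37 and 33 CpG in the 2 windows, whereas the Col3a1 window holds none. The Col3a1 window has the letters TATAAA at position -117 from the transcription start. Of the 42 members, 33 matched the promoter table, with 35 windows. Col14a1, which had the smallest limma adjusted p of the collagens in BAT, was among the 9 without a window. Over all 32817 windows in the table, 13.6% hold the TATA box, 37.4% the CAAT box and 35.6% the GC box on either strand. Among the 33 members, 5 had the TATA box (Col10a1, Col11a2, Col13a1, Col17a1 and Col3a1), 11 had the CAAT box and 21 had the GC box. The median window of a member held 12 CpG, against 7 over all windows. A match to these letters is a description and not a binding site.

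Tissue and culture held the collagens in different proportions. Collagen genes took 0.248% and 0.387% of counts in Setdb1 AKO BAT, against 0.372% and 0.328% in control BAT. The share was 2.95% in 4-OHT cells, against 3.29% in ETOH cells. It was 1.01% and 1.17% in siSetdb1 cells, against 1.14% in siNC cells. Setdb1 AKO library 1 was below both controls and library 2 above both (exact permutation test, two-sided p = 1). The experiments were scaled separately, so levels are set side by side here only as proportions within a library.

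Per kilobase of gene length, the type IV chains made up 57.1% and 54.0% of the summed collagen level in Setdb1 AKO BAT, against 61.8% and 63.5% in control BAT. Fibrillar chains made up 23.9% and 27.5% in Setdb1 AKO BAT, against 21.3% and 20.2% in control BAT. Type VI chains made up 11.2% and 11.9% in Setdb1 AKO BAT, against 10.8% and 10.4% in control BAT. The groups did not overlap in any of these 3 shares, but 2 libraries against 2 cannot give an exact two-sided permutation p below 0.333, which each share had. In culture the fibrillar chains led, with 58.1% in 4-OHT cells, against 59.0% in ETOH cells, and with 44.6% and 47.3% in siSetdb1 cells, against 45.5% in siNC cells. Type IV chains were at 19.9% in 4-OHT cells, against 17.7% in ETOH cells, and at 24.9% and 23.8% in siSetdb1 cells, against 24.2% in siNC cells. These shares use the deposited gene length, which merges all exons, and were not computed with another length. That length exceeds that of the transcript with the longest coding sequence more in some chains than in others. It was 9816 against 5564 bases in Col3a1 and 6619 against 6450 in Col4a2, so the shares depend on the length used. BAT is a whole tissue, so in all values that follow fewer cells of a type and less RNA per cell cannot be told apart.

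**Figure D1:**
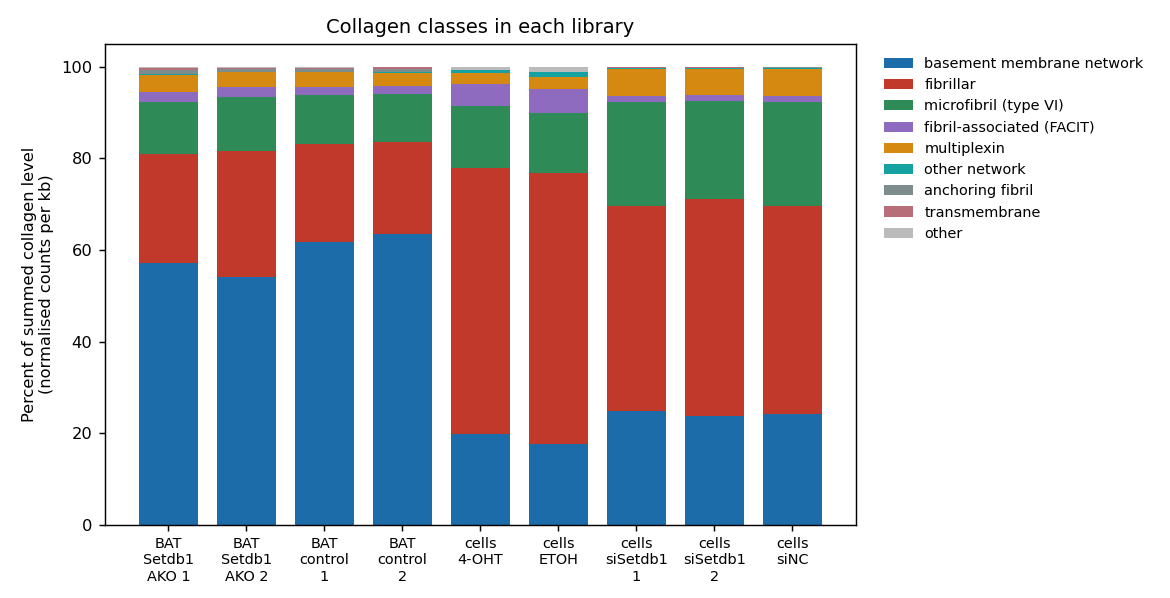
Share of each collagen class in the summed collagen level (normalised counts per kilobase of gene length, percent) in each of the 9 libraries. Type IV chains make up 54.0% to 63.5% in BAT and 17.7% to 24.9% in cultured cells, where fibrillar chains make up 44.6% to 59.0%.

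In BAT the level per kilobase of Col4a1 was 1844 and 2754 in Setdb1 AKO BAT, against 2734 and 2515 in control BAT. That of Col4a2, its partner in the type IV trimer, was 1282 and 1802 in Setdb1 AKO BAT, against 1949.6 and 1909 in control BAT. The ratio of Col4a1 to Col4a2 per kilobase stayed between 1.32 and 1.53 over the 4 BAT libraries. The next in order of mean level per kilobase was Col3a1, the chain of type III fibrils, with 425 and 633 in Setdb1 AKO BAT, against 524 and 466 in control BAT, followed by Col6a1, a chain of the type VI microfibril, with 333 and 567 in Setdb1 AKO BAT, against 438 and 393 in control BAT. The ranges of Col3a1 and Col6a1 overlapped over the 4 libraries. Places 5 to 10 were held by Col5a3, Col1a1, Col6a2, Col27a1, Col1a2 and Col15a1, between 125 and 671 normalised counts per kilobase in single libraries. This order depends on the length used. With the deposited gene length Col6a1 stood at 1.75 to 1.91 times Col6a2 in BAT. With the length of the transcript with the longest coding sequence it stood at 0.885 to 0.966 times.

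The order differed in culture. Col1a1, the main chain of type I fibrils, led, at a level per kilobase of 38503 in 4-OHT cells, against 39162 in ETOH cells. It also led in the siRNA experiment, with 4356 and 5377 in siSetdb1 cells, against 5594 in siNC cells. The ratio of Col1a1 to Col4a1 was reversed between tissue and culture: Col4a1 stood at 6.87 to 10.3 times Col1a1 per kilobase in BAT, at 0.306 to 0.343 times in the 4-OHT experiment and at 0.584 to 0.698 times in the siRNA experiment. Col3a1 stood at 1.58 to 1.91 times Col1a1 in BAT, at 0.177 to 0.235 times in the 4-OHT experiment and at 0.308 to 0.352 times in the siRNA experiment. The ratio of Col1a1 to Col1a2, which join in type I collagen, depends on the length used. With the deposited gene length, which merges all exons, it was 1.42 to 1.92 in BAT, 4.32 to 4.69 in the 4-OHT experiment and 2.18 to 2.51 in the siRNA experiment. With the length of the transcript with the longest coding sequence it was 0.677 to 0.914, 2.06 to 2.24 and 1.04 to 1.20 in those experiments. With that length Col3a1 stood at 2.52 to 3.05, 0.283 to 0.375 and 0.491 to 0.562 times Col1a1 in them. These ratios describe separate experiments with no test between them.

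No collagen gene passed the test in BAT. Of the 42 members, 29 reached the minimum of 10 normalised counts, which 2 of the BAT libraries had to meet, and were tested; limma called 0 of them higher (1.00% of all genes tested) and 0 lower (0.677%) in Setdb1 AKO BAT at a false discovery rate below 0.05. At an unadjusted p below 0.05, 3 were higher (8.64% of all genes) and 0 lower (9.08%). The quasi-likelihood test of edgeR on recovered reads also called 0 (1.73% of all genes), and DESeq2 called 1, Col14a1 (4.50%). Fitted differences were positive in 22 and negative in 7 of the 29, with a median log2 fold change of 0.13, against 0.0058 over all genes tested. In 8 both Setdb1 AKO libraries were above both controls (25.1% of all genes), and in 2, Col27a1 and Col4a2, both were below (24.9%). Those 8 were Col13a1, Col14a1, Col16a1, Col4a4, Col6a5, Col6a6, Col8a1 and Col9a3. In the other 19 the groups overlapped.

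**Figure D2:**
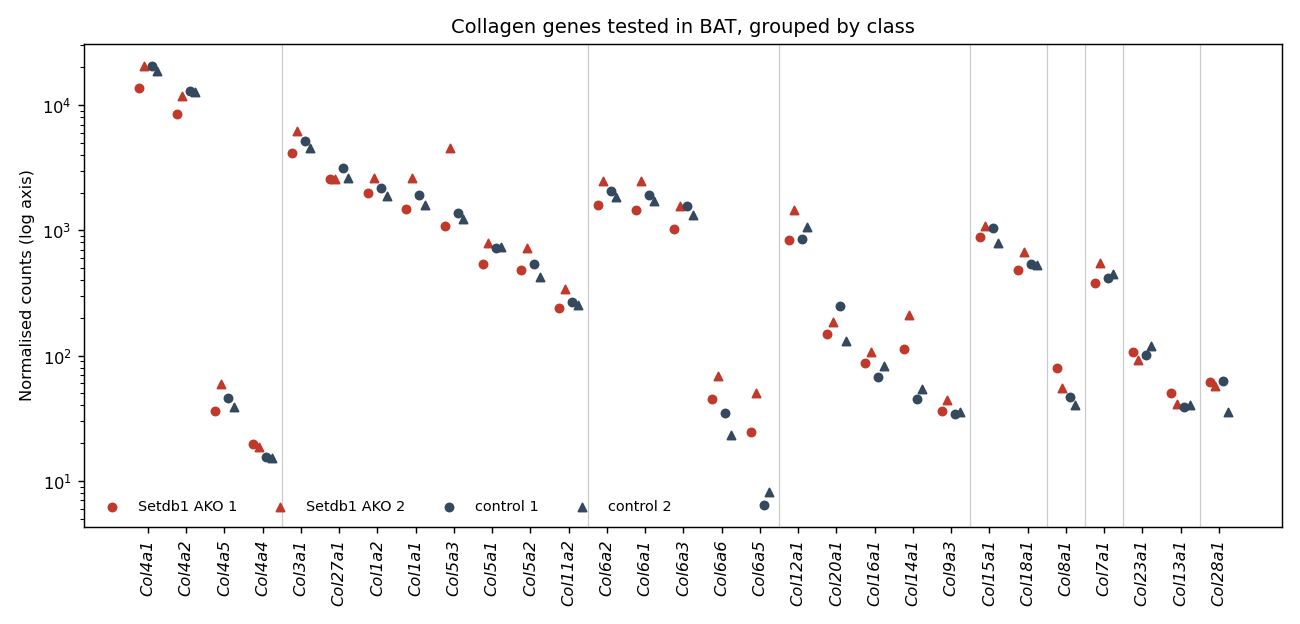
Normalised counts (log axis) of the 29 collagen genes tested in BAT, grouped by class, with 1 point per library (red, Setdb1 AKO; dark blue, control; circles, library 1; triangles, library 2). In 12 genes Setdb1 AKO library 1 lies below and library 2 above both controls (6.94% of all genes), a pattern chosen after its values were seen. In 8, among them Col14a1, Col6a5 and Col6a6, both Setdb1 AKO libraries lie above both controls (25.1% of all genes). Col6a5 reached the minimum for the test in Setdb1 AKO BAT alone.

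Among the basement membrane chains, Col4a1 had 13764 and 20554 normalised counts in Setdb1 AKO BAT, against 20409 and 18769 in control BAT (log2 fold change -0.22, SE 0.24, limma adjusted p = 0.686). Setdb1 AKO library 1 was the lowest of the 4 and library 2 the highest. Col4a2 had 8483 and 11925 normalised counts in Setdb1 AKO BAT, against 12904 and 12638 in control BAT (log2 fold change -0.34, SE 0.21, limma adjusted p = 0.445). Both Setdb1 AKO libraries were below both controls, library 2 by less than its distance from library 1. The spans of both genes overlap at their start sites on opposite strands, and the strand setting of the counting is not given in the sources used here, so reads from that overlap cannot be assigned. Col4a5, a chain of other type IV trimers, had 36 and 58.8 normalised counts in Setdb1 AKO BAT, against 45.9 and 38.6 in control BAT (log2 fold change 0.13), and the groups overlapped. Col4a4 had 19.6 and 18.6 normalised counts in Setdb1 AKO BAT, against 15.6 and 15.2 in control BAT (log2 fold change 0.29, SE 0.44, limma adjusted p = 0.784), so that its 2 groups were separate by few counts. Col4a3, its neighbour and partner, was below the test's minimum, with 2.06 and 5.16 normalised counts in Setdb1 AKO BAT, against 9.17 and 11.2 in control BAT. Col4a6 had at most 1.03 normalised counts in a BAT library.

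Among the fibrillar chains, Col1a1 had 1481 and 2632 normalised counts in Setdb1 AKO BAT, against 1928 and 1598 in control BAT (log2 fold change 0.17, SE 0.27, limma adjusted p = 0.792). Its partner Col1a2 had 1974 and 2597 normalised counts in Setdb1 AKO BAT, against 2171 and 1872 in control BAT (log2 fold change 0.17, SE 0.18, limma adjusted p = 0.683). In both genes Setdb1 AKO library 2 was the highest of the 4, and the groups overlapped. Col3a1 had 4171 and 6215 normalised counts in Setdb1 AKO BAT, against 5139 and 4574 in control BAT (log2 fold change 0.071, SE 0.21, limma adjusted p = 0.902), with library 1 below and library 2 above both controls. Col5a3, a chain of type V collagen, which joins type I fibrils, had 1082 and 4567 normalised counts in Setdb1 AKO BAT, against 1379.6 and 1239 in control BAT. The difference rests on Setdb1 AKO library 2, which stood 2.08 on the log2 scale above library 1, more than in any other collagen gene tested. The fitted log2 fold change was 0.77 (SE 0.57, limma adjusted p = 0.530); it was 1.80 without library 1 (adjusted p = 0.00797) and -0.27 without library 2. The other type V chains were Col5a1, with 536 and 794 normalised counts in Setdb1 AKO BAT, against 716 and 735 in control BAT, and Col5a2, with 486 and 724 normalised counts in Setdb1 AKO BAT, against 539 and 424 in control BAT. Neither group was apart from the other in these 2 genes, with log2 fold changes of -0.15 and 0.31. Col27a1, a fibrillar chain best known from cartilage, had 2548 and 2548 normalised counts in Setdb1 AKO BAT, against 3146 and 2632 in control BAT (log2 fold change -0.18, SE 0.15, limma adjusted p = 0.603). Both Setdb1 AKO libraries were below both controls, by a margin smaller than the distance between the controls. Col11a2 had 239 and 342 normalised counts in Setdb1 AKO BAT, against 269.7 and 254 in control BAT (log2 fold change 0.13), and its partner Col11a1 at most 3.04 in a library.

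The type VI chains divided in level, and none of them was called. The chains of the common trimer were Col6a1, with 1457 and 2482 normalised counts in Setdb1 AKO BAT, against 1917 and 1719.7 in control BAT, Col6a2, with 1586 and 2474 normalised counts in Setdb1 AKO BAT, against 2079 and 1838 in control BAT, and Col6a3, with 1028 and 1559 normalised counts in Setdb1 AKO BAT, against 1577 and 1331 in control BAT. Their log2 fold changes were 0.067, 0.019 and -0.19, and in each the groups overlapped. Col6a5 and Col6a6 encode chains that can take the place of the Col6a3 product. Col6a5 (chr9:105856078-105960643, minus strand) had 24.7 and 50.6 normalised counts in Setdb1 AKO BAT, against 6.42 and 8.12 in control BAT, or 37.6 ± 18.3 in Setdb1 AKO BAT and 7.27 ± 1.2 in control BAT (SD, n = 2 each). The log2 fold change was 2.15 (SE 0.53, limma adjusted p = 0.102). Col6a5 reached the minimum of 10 normalised counts in the Setdb1 AKO libraries alone, so that it could enter the test only by being higher there, and its p, its place among the 3 and its place among the 8 genes above are no support for a difference. Col6a6 (chr9:105687809-105828160, minus strand) had 45.3 and 68.1 normalised counts in Setdb1 AKO BAT, against 34.9 and 23.3 in control BAT, or 56.7 ± 16.1 in Setdb1 AKO BAT and 29.1 ± 8.15 in control BAT (SD, n = 2 each). The log2 fold change was 0.94 (SE 0.39, unadjusted p = 0.0454, limma adjusted p = 0.270). Both Setdb1 AKO libraries were above both controls in each gene, and neither passed the adjusted threshold. The pair shares few sequences of 31 bases, 3.98% of those of Col6a5, and 4.31% of those of Col6a6 when matches to other genes are included.

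Among the fibril-associated chains, Col14a1 (chr15:55307750-55520803, plus strand), which encodes a collagen bound to the surface of type I fibrils, had 112 and 212 normalised counts in Setdb1 AKO BAT, against 44.9 and 53.8 in control BAT, or 162 ± 70.2 in Setdb1 AKO BAT and 49.4 ± 6.24 in control BAT (SD, n = 2 each). Both Setdb1 AKO libraries were above both controls, library 2 the higher. The log2 fold change was 1.63 (SE 0.35, 95% interval 0.80 to 2.45), and its limma adjusted p of 0.0758 was the smallest among the collagens. DESeq2 on recovered reads gave 1.72 with an adjusted p of 0.00289, and edgeR gave 1.72 with 0.0701. In the authors' deposited table Col14a1 was the 1 collagen gene of 40 with an adjusted p below 0.05 (0.00511), where 578 of 22721 genes (2.54%) were. Over all settings tried the adjusted p of Col14a1 ran between 0.00289 and 0.356, with a positive fold change in each. Col12a1, a related chain, had 838 and 1443 normalised counts in Setdb1 AKO BAT, against 858 and 1059 in control BAT (log2 fold change 0.21), and the groups overlapped. Col16a1 had 87.5 and 106 normalised counts in Setdb1 AKO BAT, against 67.9 and 82.2 in control BAT (log2 fold change 0.36, adjusted p = 0.531 by limma) and Col20a1 had 148 and 186 normalised counts in Setdb1 AKO BAT, against 248 and 132 in control BAT, with overlapping groups in Col20a1 alone. Col9a3 had 36 and 44.4 normalised counts in Setdb1 AKO BAT, against 33.9 and 35.5 in control BAT; it shares exon bases with Tcfl5 on the opposite strand, so its counts are uncertain.

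**Figure D3:**
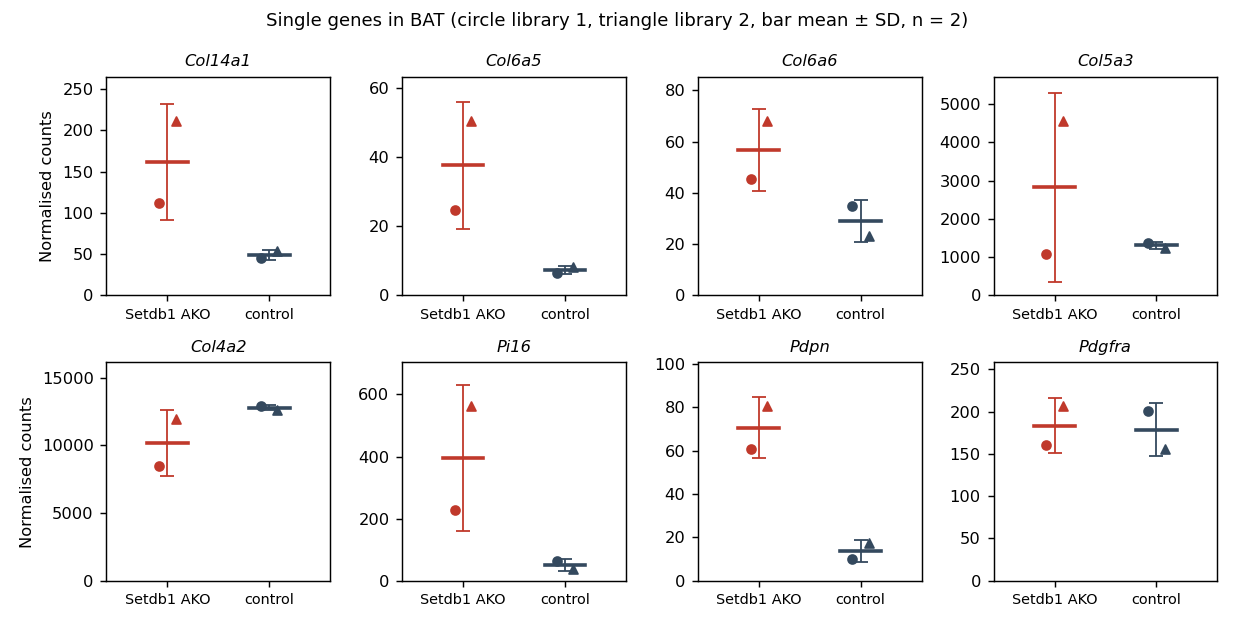
Normalised counts of 5 collagen genes and of Pi16, Pdpn and Pdgfra, markers of fibroblasts and preadipocytes, in Setdb1 AKO BAT and control BAT (circle, library 1; triangle, library 2; bar and whiskers, mean ± SD, n = 2). Col5a3 is at 4567 in Setdb1 AKO library 2 and between 1082 and 1380 in the other 3, while Col14a1 is above both controls in both Setdb1 AKO libraries.

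The multiplexins, basement membrane proteoglycans, included Col15a1, with 879.8 and 1089 normalised counts in Setdb1 AKO BAT, against 1044 and 796 in control BAT (log2 fold change 0.10), and Col18a1, the precursor of endostatin, with 483 and 676 normalised counts in Setdb1 AKO BAT, against 539 and 527 in control BAT (log2 fold change 0.10). The groups overlapped in both. Col8a1, a network former of vessel walls, had 80.3 and 54.7 normalised counts in Setdb1 AKO BAT, against 46.8 and 40.6 in control BAT (log2 fold change 0.59, SE 0.33, limma adjusted p = 0.401). Both Setdb1 AKO libraries were above both controls, and here library 1 was the higher. Its partner Col8a2 stayed between 2.06 and 4.06 normalised counts and was not tested. Col7a1, the chain of anchoring fibrils, had 383 and 549.9 normalised counts in Setdb1 AKO BAT, against 415 and 451 in control BAT (log2 fold change 0.085). The transmembrane chains tested were Col13a1, with 50.4 and 41.3 normalised counts in Setdb1 AKO BAT, against 38.5 and 40.6 in control BAT, and Col23a1, with 107 and 91.8 normalised counts in Setdb1 AKO BAT, against 102 and 119 in control BAT. Of these, Col13a1 was higher in both Setdb1 AKO libraries than in both controls, by less than 1 normalised count at the nearest points, and Col23a1 overlapped. Col28a1 had 61.7 and 56.7 normalised counts in Setdb1 AKO BAT, against 62.4 and 35.5 in control BAT, with overlapping groups. Of the 13 members not tested, Col24a1 and Col26a1 had 0 counts in every BAT library, which allows up to 3 counts in each.

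The libraries of one group differed from each other in the same direction across most collagens. Setdb1 AKO library 2 was higher than library 1 in 24 of the 29, with a median difference of 0.52 on the log2 scale, against 51.4% of all genes and a median of 0.0038. In control BAT, library 2 was higher than library 1 in 9 of the 29, with a median of -0.16. In 12 of the 29 Setdb1 AKO library 1 was below both controls and library 2 above both (6.94% of all genes); they were Col1a1, Col3a1, Col5a1, Col5a3, Col11a2, Col4a1, Col4a5, Col6a1, Col6a2, Col12a1, Col18a1 and Col7a1. The reverse order was found in 0 of the 29 (8.09% of all genes). This pattern was chosen after its values were seen. The median log2 fold change of the 29 was 0.34 without Setdb1 AKO library 1 and -0.16 without library 2.

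Of 10 markers of fibroblasts and preadipocytes, the cells that make most fibrillar collagen, limma called 2 higher in Setdb1 AKO BAT (1.00% of all genes). These were Pi16 and Pdpn. All 10 had a positive fitted fold change, with a median of 0.64; in 7 both Setdb1 AKO libraries were above both controls (25.1% of all genes), and in Pdgfra, Thy1 and Ly6a the groups overlapped. Their summed level was 4423 and 5833 normalised counts in Setdb1 AKO BAT, against 3975 and 3838 in control BAT, and none was at 0 in any library. Single markers differed from this sum. Ly6a held its largest part, with 1761 and 2188 normalised counts in Setdb1 AKO BAT, against 1911 and 1889 in control BAT. Pi16, a marker of adventitial fibroblasts, rose, with 229 and 562 normalised counts in Setdb1 AKO BAT, against 63.3 and 36.5 in control BAT (log2 fold change 2.87, SE 0.45, limma adjusted p = 0.0327). Pdpn, which encodes podoplanin, rose as well, with 60.7 and 80.5 normalised counts in Setdb1 AKO BAT, against 10.1 and 17.2 in control BAT (log2 fold change 2.32, SE 0.42, limma adjusted p = 0.0488). Pdgfra, expressed by most fibroblasts, had 161 and 206 normalised counts in Setdb1 AKO BAT, against 201 and 156 in control BAT (log2 fold change 0.039), and its groups overlapped. Mural markers summed to 9663 and 8759 in Setdb1 AKO BAT, against 7570.2 and 7266 in control BAT, with 0 of 7 called. Rgs5 made up most of each sum, with 6240 and 5150 normalised counts in Setdb1 AKO BAT, against 4728.5 and 4954 in control BAT. Rgs5 and Cspg4 were above both controls in both Setdb1 AKO libraries (25.1% of all genes) and Notch3 was below both (24.9%). In the remaining mural markers the groups overlapped. Endothelial markers summed to 11320.0 and 10081 in Setdb1 AKO BAT, against 10692 and 11870.0 in control BAT, with 0 of 6 called. The part of these cells in the collagen values was not tested.

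Genes that act on collagen were taken from 7 lists by role. Of 20 genes tested for chain folding and hydroxylation, limma called 0 (median log2 fold change -0.24, 15 negative). Plod2, a lysyl hydroxylase whose product marks the sites of stable crosslinks, had 64.8 and 105 normalised counts in Setdb1 AKO BAT, against 186 and 241 in control BAT (log2 fold change -1.35, SE 0.30, limma adjusted p = 0.08). P4ha1, a catalytic subunit of prolyl hydroxylase, had 619 and 518 normalised counts in Setdb1 AKO BAT, against 761 and 1061 in control BAT (log2 fold change -0.67, SE 0.20, limma adjusted p = 0.16). Both Setdb1 AKO libraries were below both controls in these 2 genes, and in 10 of the 20 in all (24.9% of all genes). Of 11 genes for propeptide cleavage and crosslinking, 0 were called (median 0.21), with Adamts2, a propeptide protease, at 302 and 413 normalised counts in Setdb1 AKO BAT, against 449 and 501 in control BAT (log2 fold change -0.43) and Adamts14 at 0.71 on the log2 scale.

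Of 13 genes for degradation and uptake, 0 were called (median 0.27), and the smallest p belonged to Timp2, an inhibitor of matrix metalloproteinases, with 559 and 903 normalised counts in Setdb1 AKO BAT, against 454 and 465 in control BAT (log2 fold change 0.63, SE 0.24, limma adjusted p = 0.232), followed by Ctsk, a collagen-cleaving cathepsin, with a log2 fold change of 0.86. Of 9 collagen receptors, 0 were called (median 0.28), led by Itga1, a collagen-binding integrin chain, at 0.40, and Ddr2, a receptor kinase, at 0.52. Of 16 genes of the fibril-associated matrix, 0 were called (median 0.27), and in 9 both Setdb1 AKO libraries were above both controls (25.1% of all genes). Ogn, a small leucine-rich proteoglycan, had 215 and 198 normalised counts in Setdb1 AKO BAT, against 116 and 106 in control BAT (limma adjusted p = 0.0918), and Fn1, which encodes fibronectin, had 487 and 1118 normalised counts in Setdb1 AKO BAT, against 251 and 294 in control BAT (limma adjusted p = 0.104).

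Calls among these lists included Lamb3 and Ctgf. Among the 13 basement membrane partners tested (median log2 fold change 0.047), Lamb3, which encodes a laminin chain of epithelial basement membranes, rose, with 357 and 274 normalised counts in Setdb1 AKO BAT, against 98.1 and 140.0 in control BAT (log2 fold change 1.41, SE 0.25, limma adjusted p = 0.0493). Its Setdb1 AKO libraries were both above the 2 controls. Of 16 genes of the TGF-beta pathway, limma called 1 higher, Ctgf (1.00% of all genes). Ctgf, a matricellular gene that the pathway induces, had 400.3 and 390.0 normalised counts in Setdb1 AKO BAT, against 164 and 124 in control BAT (log2 fold change 1.46, SE 0.21, limma adjusted p = 0.0253). The calls of Lamb3 and of Ctgf were lost without each of the 4 libraries in turn and with no filter on low values.

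In the siRNA experiment no collagen gene passed either. The 32 tested had at least 10 normalised counts in at least 1 library, which 3 of them (Col2a1, Col6a6 and Col9a2) reached in 1 group alone, and limma called 0 higher (0.0328% of all genes tested) and 0 lower (0.00657%) in siSetdb1 cells. At an unadjusted p below 0.05 there were 0 higher (3.02% of all genes) and 1 lower, Col6a2 (2.04%); edgeR called 0 (0.243%) and DESeq2 called 0 (0.0723%). This test takes siNC, a single library, to vary as much as the siSetdb1 pair does. It also takes that pair as replicates, which the titles do not settle. Fitted differences were positive in 13 and negative in 19, with a median log2 fold change of -0.065, against -0.0034 over all genes. Both siSetdb1 libraries were above siNC in 8 (34.1% of all genes) and below it in 12 (33.8%). As in Setdb1 AKO BAT, 1 library was higher than the other across most members: siSetdb1 library 2 exceeded library 1 in 27 of the 32, with a median of 0.23 on the log2 scale, against 49.8% of all genes.

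**Figure D4:**
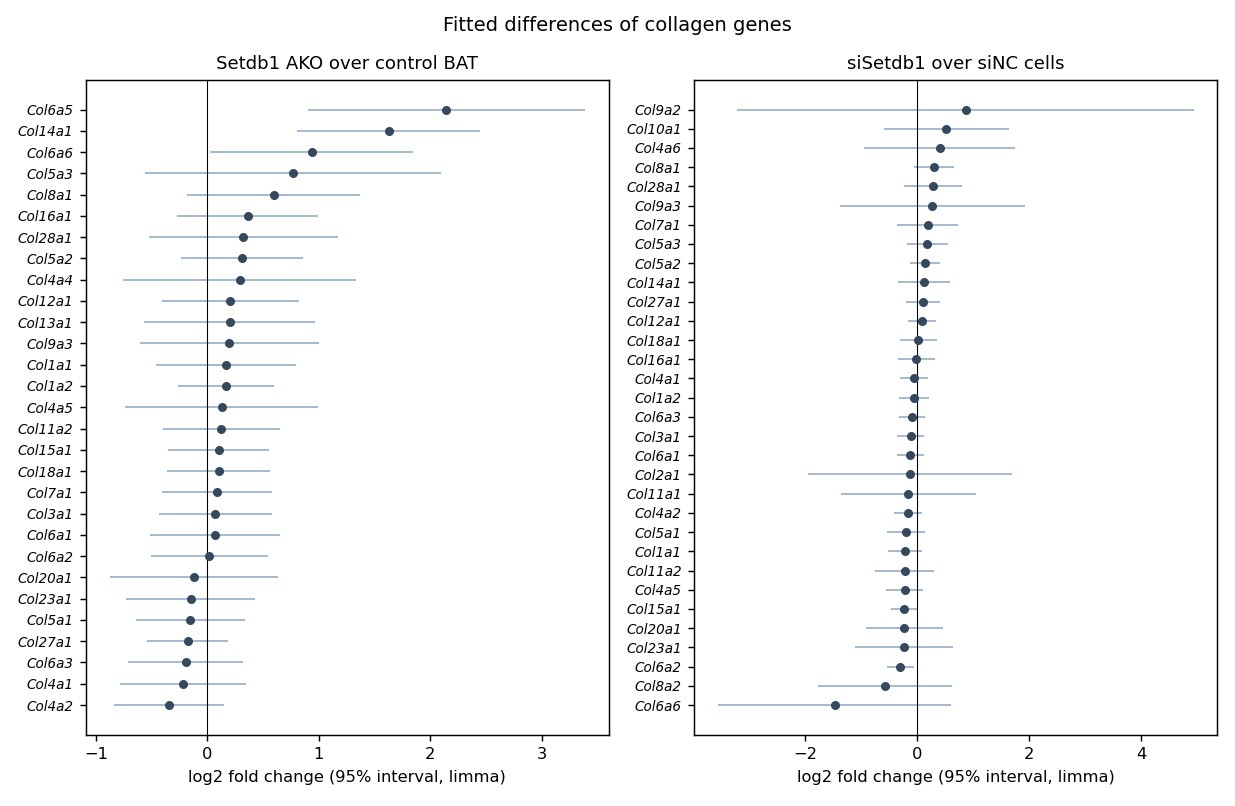
Fitted log2 fold changes (points) with 95% intervals (lines) from limma for the 29 collagen genes tested in BAT (left) and the 32 tested in the siRNA experiment (right). Intervals of Col6a5, Col14a1 and Col6a6 in BAT and of Col6a2 in siSetdb1 cells exclude 0 before adjustment; none passed the adjusted threshold, and Col6a5 reached the minimum for the test in Setdb1 AKO BAT alone.

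Col6a2 had 9642 and 10779 normalised counts in siSetdb1 cells, against 12482 in siNC cells (log2 fold change -0.29, SE 0.11, unadjusted p = 0.0242, limma adjusted p = 0.938). Its partners Col6a1 and Col6a3 had 15281 and 16618 normalised counts in siSetdb1 cells, against 17251 in siNC cells, and 9048 and 9588 normalised counts in siSetdb1 cells, against 9833 in siNC cells. All 3 chains were lower in both siSetdb1 libraries than in siNC, with log2 fold changes of -0.11 for Col6a1 and -0.078 for Col6a3. Col6a6 had 3.04 and 8.15 normalised counts in siSetdb1 cells, against 15.8 in siNC cells (log2 fold change -1.47, SE 0.95, limma adjusted p = 0.941), a wide interval at few counts, and reached the minimum in siNC alone. The type IV pair had 22695 and 24548 normalised counts in siSetdb1 cells, against 24378 in siNC cells, for Col4a1, and 18479 and 20632 normalised counts in siSetdb1 cells, against 21734 in siNC cells, for Col4a2. Their log2 fold changes were -0.047 and -0.15, with overlap in Col4a1 alone. Col4a5 had 657 and 784 normalised counts in siSetdb1 cells, against 836 in siNC cells (log2 fold change -0.22), and Col4a6 had 16.2 and 21.4 normalised counts in siSetdb1 cells, against 13.8 in siNC cells.

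Among the fibrillar chains of the siRNA experiment, Col1a1 had 28589 and 35288 normalised counts in siSetdb1 cells, against 36712 in siNC cells (log2 fold change -0.21, SE 0.14, limma adjusted p = 0.941). Col1a2 had 24777 and 28750.0 normalised counts in siSetdb1 cells, against 27674 in siNC cells (log2 fold change -0.052), and Col3a1 had 15072 and 16290.0 normalised counts in siSetdb1 cells, against 16922 in siNC cells (log2 fold change -0.11). Both siSetdb1 libraries were below siNC in Col1a1 and Col3a1, and on either side of it in Col1a2. Col5a3 had 7573 and 10760.0 normalised counts in siSetdb1 cells, against 7913 in siNC cells (log2 fold change 0.19, SE 0.17, limma adjusted p = 0.95), with the libraries on either side of siNC. Col5a1 had 5512 and 7498 normalised counts in siSetdb1 cells, against 7328 in siNC cells, and Col5a2 had 6861 and 8122 normalised counts in siSetdb1 cells, against 6759 in siNC cells. Of this pair, Col5a2 alone had both siSetdb1 libraries above siNC. The Col5a3 and Col5a1 values of siSetdb1 library 2 were the higher of their pairs, as in most members.

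Of the rest, Col15a1 had 7254 and 7666 normalised counts in siSetdb1 cells, against 8701 in siNC cells (log2 fold change -0.22, SE 0.11, limma adjusted p = 0.941), both libraries being below siNC. Col8a1 had 389 and 429 normalised counts in siSetdb1 cells, against 331 in siNC cells (log2 fold change 0.30, SE 0.16, limma adjusted p = 0.941), both being above it, while Col8a2 had 16.2 and 28.5 normalised counts in siSetdb1 cells, against 32.6 in siNC cells, both below. Col10a1, known from growth plate cartilage, had 26.3 and 53 normalised counts in siSetdb1 cells, against 25.7 in siNC cells (log2 fold change 0.53, SE 0.51, limma adjusted p = 0.952), with library 1 within 1 count of siNC. The chains of type IX collagen, Col9a2 and Col9a3, had 12.2 and 0 normalised counts in siSetdb1 cells, against 0.986 in siNC cells, and 19.3 and 9.17 normalised counts in siSetdb1 cells, against 10.9 in siNC cells, and the libraries lay on either side of siNC in both. Among the 7 partner lists limma called 0 genes; Ctgf had the smallest p, with 4941 and 5494 normalised counts in siSetdb1 cells, against 3454 in siNC cells (log2 fold change 0.59, SE 0.11, limma adjusted p = 0.174), and was the 1 gene of these lists that edgeR called. Fibroblast markers summed to 12035 and 9033 normalised counts in siSetdb1 cells, against 7885 in siNC cells, with 0 of 9 called and 5 positive. Ly6a alone had 8532 and 5490 normalised counts in siSetdb1 cells, against 4649 in siNC cells, and made up most of each sum, while Pdgfra, Thy1, Cd34 and Pi16 had negative fitted differences. Pi16 reached the minimum in siNC alone, and Clec3b, among those with a positive difference, in siSetdb1 cells alone. The direction of neither is support for a difference. Macrophage markers summed to 222 and 253 in siSetdb1 cells, against 333 in siNC cells, with 0 of 6 called and 1 positive.

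With 1 library per group the 4-OHT experiment gives no test, and collagens are described by ratios past 1.5-fold. Of the 29 members with at least 50 counts in 1 library, 1 was higher in 4-OHT cells (4.21% of all genes described) and 5 were lower (6.12%). Ratios were negative in 20 and positive in 9, with a median of -0.14 on the log2 scale, against 0.011 over all genes. Intervals given with these ratios are 95% intervals for counting error alone. The higher gene was Col27a1, with 1824 counts in 4-OHT cells, against 1221 in ETOH cells (log2 ratio 0.63, counting interval 0.53 to 0.74); it was within 1.5-fold without the TMM factor.

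The 5 lower genes included both chains of type VIII collagen. Col8a1 had 4569 counts in 4-OHT cells, against 8952 in ETOH cells (log2 ratio -0.92, counting interval -0.97 to -0.87). Col8a2 had 145 counts in 4-OHT cells, against 316 in ETOH cells (log2 ratio -1.06, counting interval -1.36 to -0.78). Col28a1, a chain with von Willebrand factor domains, had 3361 counts in 4-OHT cells, against 6328 in ETOH cells (log2 ratio -0.86, counting interval -0.92 to -0.80). These 3 lay beyond 1.5-fold over the whole of their intervals. Col23a1 had 53 counts in 4-OHT cells, against 112 in ETOH cells (log2 ratio -1.0, counting interval -1.53 to -0.54), and Col6a6 had 35 counts in 4-OHT cells, against 82 in ETOH cells (log2 ratio -1.13, counting interval -1.79 to -0.59). Both intervals reach to about 1.5-fold or nearer to 0. Col6a6 reached the minimum of 50 counts in ETOH cells alone, so that it could be described only by being lower in 4-OHT cells, and its place among the 5 is no support for a difference.

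**Figure D5:**
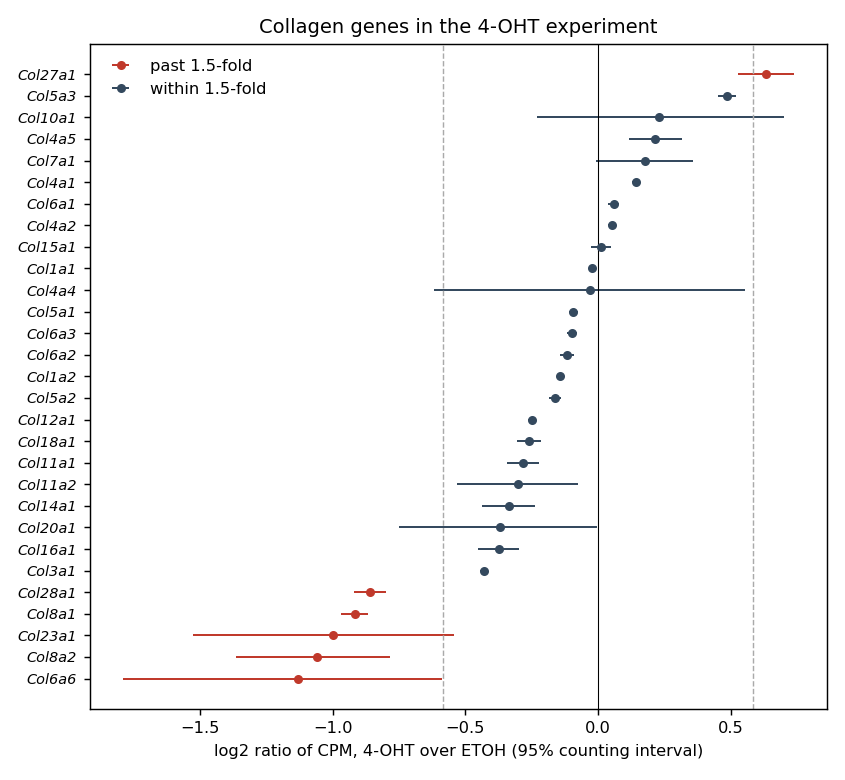
Log2 ratios of CPM in 4-OHT cells over ETOH cells (points) with 95% counting intervals (lines) for the 29 collagen genes with at least 50 counts, 1 library per group. Dashed lines mark 1.5-fold; Col27a1 lies above them and Col28a1, Col8a1, Col23a1, Col8a2 and Col6a6 below.

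The abundant collagens differed less. Col1a1 had 248082 counts in 4-OHT cells, against 261796 in ETOH cells (log2 ratio -0.024, counting interval -0.032 to -0.017), and Col1a2 had 100058 counts in 4-OHT cells, against 114662 in ETOH cells (log2 ratio -0.14, counting interval -0.16 to -0.13). Col3a1 had 65807 counts in 4-OHT cells, against 92087 in ETOH cells (log2 ratio -0.43, counting interval -0.45 to -0.42), the lowest ratio among the 10 most abundant. Col12a1 had 70970 counts in 4-OHT cells, against 87483 in ETOH cells (log2 ratio -0.25), and all 4 fibril-associated chains described were lower, between -0.37 and -0.25. Of the type V chains, Col5a3 had 16244 counts in 4-OHT cells, against 12037 in ETOH cells (log2 ratio 0.49, counting interval 0.45 to 0.52), while Col5a1 and Col5a2 had log2 ratios of -0.093 and -0.16. Col4a1 had 96865 counts in 4-OHT cells, against 91053 in ETOH cells (log2 ratio 0.14), and Col4a2 had 60078 counts in 4-OHT cells, against 60101 in ETOH cells (log2 ratio 0.053). The type VI chains Col6a1, Col6a2 and Col6a3 had log2 ratios of 0.058, -0.12 and -0.099; without the TMM factor Col4a2, Col6a1 and Col15a1 turned negative, to -0.013, -0.0074 and -0.056. Col10a1 had 85 counts in 4-OHT cells, against 75 in ETOH cells (log2 ratio 0.23), an interval that includes 0.

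Among the partner lists of the 4-OHT experiment, genes past 1.5-fold were mostly lower. In degradation and uptake 4 of 13 were lower (6.12% of all genes) and 0 higher (4.21%): Mmp13 had 41 counts in 4-OHT cells, against 179 in ETOH cells, Fap had 59 counts in 4-OHT cells, against 173 in ETOH cells, Mmp9 had 84 counts in 4-OHT cells, against 239 in ETOH cells and Mmp2 had 3131 counts in 4-OHT cells, against 5440 in ETOH cells. These encode 3 matrix metalloproteinases and fibroblast activation protein; Mmp13 reached the minimum of 50 counts in ETOH cells alone. In the fibril-associated matrix 5 of 16 were lower (6.12% of all genes) and 0 higher (4.21%), among them Dcn, which encodes decorin, with 979 counts in 4-OHT cells, against 2299 in ETOH cells, and Eln, which encodes elastin, with 4036 counts in 4-OHT cells, against 8643 in ETOH cells. In chain folding and hydroxylation 0 of 21 passed 1.5-fold, although 17 ratios were negative. Lama3, a laminin chain, was lower, with 28 counts in 4-OHT cells, against 63 in ETOH cells, and also reached the minimum in ETOH cells alone. All 6 macrophage markers were lower, 3 of them past 1.5-fold (6.12% of all genes). Their sum was 14585 normalised counts in 4-OHT cells, against 21735 in ETOH cells. All 7 adipocyte markers were higher and summed to 278070.0 in 4-OHT cells, against 215750.0 in ETOH cells. The 10 fibroblast markers summed to 17675 in 4-OHT cells, against 19785 in ETOH cells. Of the 8 described, 1 was past 1.5-fold, lower (6.12% of all genes). None of these markers was at 0, and their part in the collagen values was not tested.

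Set side by side, the experiments share no library. The difference between the BAT and siRNA effects was fitted for 26 members, of which 0 passed the adjusted threshold (0.246% of 13413 genes; limma) and 2, Col14a1 and Col6a6, had an unadjusted p below 0.05. For Col14a1 the log2 fold change was 1.63 in BAT and 0.12 in the siRNA experiment, a difference of 1.5 (SE 0.49, adjusted p = 0.347). For Col6a6 it was 0.94 in BAT and -1.47 in the siRNA experiment, where it reached the minimum in siNC alone, so that its p is no support for a difference between the experiments. Col8a1 was at 0.59 in BAT, -0.92 in the 4-OHT experiment and 0.30 in the siRNA experiment. Col5a3 was at 0.77, 0.49 and 0.19 in those experiments, and Col4a2 at -0.34, 0.053 and -0.15. Col6a5 had 22 counts in 4-OHT cells, against 41 in ETOH cells, and 5.07 and 7.13 normalised counts in siSetdb1 cells, against 1.97 in siNC cells, under the minimum for a ratio or a test. In all, 25 members were described in every experiment, 5 in 2 of them and 5 in 1; Col17a1, Col19a1, Col22a1, Col24a1, Col25a1, Col26a1 and Col4a3 passed the minimum in none.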

How the data were processed

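RNA from 4 BAT libraries and 5 libraries of primary brown adipocytes was sequenced. Per the submitters' processing notes the tools included featureCounts 2.0.3, STAR 2.7.10a, DESeq2 1.36.0 and Trimmomatic 0.39, with build GRCm38; the annotation, the strand setting and the handling of reads with several positions are not given in the sources used here. The deposited BAT and siRNA tables hold a signal per gene, the read count scaled by 1 factor per library by the authors. For the 4-OHT experiment the authors deposited raw counts, scaled counts and FPKM values, which they scaled to gene length and depth; the FPKM were not used. The authors' log2 fold change and p-value columns, deposited in each table, appear here only where named as theirs.

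Dividing each signal column by its smallest step gave back whole reads, with 100% of values within 0.05 of a whole number. The 2 siRNA tables were joined through siNC, whose 19381 shared genes had the same recovered reads. The test was limma 3.58.1 in R 4.3.3 on log2(normalised count + 1) with a trend, fitted over all genes that reached 10 normalised counts (in 2 BAT libraries, or in 1 siRNA library), and Benjamini-Hochberg adjustment over all of them at 0.05. Fold changes on this scale understate those of low genes. What the p-values measure is the spread between these libraries alone, which may be technical in the cells; in the siRNA experiment it rests on 1 residual degree of freedom. The 4-OHT ratios are of TMM-scaled CPM with a prior count of 2, for genes with at least 50 counts. Levels per kilobase use the deposited gene length. Alternatives used edgeR 4.0.16 and DESeq2 1.42.0. The scripts were tested on simulated data.

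The members, classes and lists were chosen with earlier results of these data known. The genes named were, by rule, the 10 most abundant members per kilobase, the 3 with the largest fitted difference each way, those past a threshold, the other chains of their trimers and, of each partner list, those called or else the 2 with the smallest p; others were chosen after their values were seen. A gene of these lists is not reported here.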

Additional observations from a re-analysis of the deposited data

Results flagged for a closer look

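In some collagens both libraries of the treated or deleted group lay on 1 side of the control in one experiment, while the 4-OHT library lay on the other side in the second. The difference between the experiments was not tested, since the 4-OHT experiment has 1 library per group. Between BAT and the 4-OHT experiment this held for 7 genes. In BAT alone, both Setdb1 AKO libraries were above both controls in 25.1% of all genes tested and below both in 24.9%. The share of all genes that also lay on the other side in 4-OHT cells is not given here, so the 7 cannot be read as many or few. Col14a1 (log2 fold change 1.63 in BAT, -0.34 in 4-OHT), Col6a6 (0.94, -1.13), Col8a1 (0.59, -0.92), Col16a1 (0.36, -0.37) and Col4a4 (0.29, -0.030) were higher in Setdb1 AKO BAT and lower in 4-OHT cells. Col4a2 (-0.34, 0.053) and Col27a1 (-0.18, 0.63) were lower in Setdb1 AKO BAT and higher in 4-OHT cells.

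Between the siRNA and the 4-OHT experiments it held for 9 genes. In the siRNA experiment alone, both siSetdb1 libraries were above siNC in 34.1% of all genes tested and below it in 33.8%. The joint share is again not given here, so the 9 cannot be read as many or few. Col8a1 (log2 fold change 0.30 in siRNA, -0.92 in 4-OHT), Col28a1 (0.29, -0.86), Col5a2 (0.14, -0.16), Col14a1 (0.12, -0.34) and Col12a1 (0.10, -0.25) were higher in siSetdb1 cells and lower in 4-OHT cells. Col15a1 (-0.22, 0.010), Col4a5 (-0.22, 0.22), Col4a2 (-0.15, 0.053) and Col6a1 (-0.11, 0.058) were lower in siSetdb1 cells and higher in 4-OHT cells. In Col4a2, Col6a1 and Col15a1 the 4-OHT ratio was -0.013, -0.0074 and -0.056 without the TMM factor. Col6a6 reached the minimum of 50 counts in ETOH cells alone, and that of Col4a4 rests on about 50 counts per library.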

How the results depend on the processing

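Each group held 1 or 2 libraries, so that single libraries decided several values. The 0 calls in BAT became 1 with DESeq2 (Col14a1) and 1 with a replicate block (Col14a1, limma adjusted p = 0.0437; 2.07% of all genes), and ran between 0 and 1 with a library left out, the 1 being Col5a3 without Setdb1 AKO library 1 (1.12% of all genes). The labels do not say whether their numbers pair the BAT libraries. Over genes the differences between libraries 1 and 2 in the 2 groups had a correlation of -0.015, a description that cannot settle this. The BAT median ran between -0.16 and 0.34 with a library left out. With a library left out, limma fold changes in BAT ran for Col15a1 between -0.093 and 0.30, for Col1a1 between -0.25 and 0.58, for Col1a2 between -0.031 and 0.37, for Col3a1 between -0.22 and 0.36, for Col4a1 between -0.51 and 0.071, for Col5a3 between -0.27 and 1.80, for Col6a1 between -0.32 and 0.45, for Col6a2 between -0.30 and 0.34 and for Col6a3 between -0.49 and 0.11. In siRNA, with no residual degree of freedom then, they ran for Col1a2 between -0.16 and 0.055, for Col4a1 between -0.10 and 0.010, for Col5a1 between -0.41 and 0.033, for Col5a3 between -0.063 and 0.44 and for Col9a3 between -0.22 and 0.77. The 4-OHT median was -0.21 without the TMM factor and -0.13 at a minimum of 200 counts. At a minimum of 10 counts 12 collagen genes passed 1.5-fold. Those added had fewer than 50 counts in both libraries, and the share of all genes at that minimum is not given here. Calls in the partner lists were fewer or more without single libraries, up to 2 in the fibril-associated matrix without Setdb1 AKO library 1. Another pseudocount, TMM scaling, no filter and a filter of 50 changed none of the collagen calls in BAT or siRNA. In the siRNA and 4-OHT experiments no paired analysis was possible, because siNC has 1 library and the 4-OHT experiment 1 per group.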
